A study of Mus musculus with 8 samples.

Results

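Genes named as proteasome subunits were followed in mouse haematopoietic stem and progenitor cells that carried a KLF7 virus or a control virus. A gene was taken as a member when the single symbol of its probe set in the platform annotation began with Psma, Psmb, Psmc or Psmd and ended in a number, and the immunoproteasome genes Psmb8, Psmb9 and Psmb10 were left out. This gave 36 of the 19938 genes measured, 16 of the core particle (Psma and Psmb) and 20 of the regulatory particle (Psmc and Psmd). The particles go by name. They include Psma8 and Psmb11, subunits of the testis and the thymus, and the assembly chaperones Psmd5, Psmd9 and Psmd10. Bone marrow cells of C57Bl/6 mice selected for c-Kit were infected with a lentivirus, and cells without lineage markers that carried c-Kit and Sca-1 were sorted 72 hours later. For 4 arrays the lentivirus expressed KLF7, a DNA-binding factor of the Krüppel-like family, and for the other 4 it was a control lentivirus. All groups share the strain, the selection, the infection and the sort. The promoter of the virus and the culture or animal behind each array are not stated in the labels. The p-values therefore weigh only how these 8 arrays vary, and that variation may be technical. Amplified RNA was used, with 1 array per sample, and the number of arrays limits the precision of each difference.

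The proteasome degrades proteins that carry ubiquitin chains. Its core particle is a barrel of stacked rings: outer rings of alpha subunits form a gate, and inner rings of beta subunits hold the protease sites. The regulatory particle caps the barrel, binds the ubiquitin chain, removes it, and unfolds the substrate with a ring of ATPases. In many cell types the subunit genes are transcribed together under the factor NRF1, encoded by Nfe2l1, which answers a loss of proteasome activity. Blood stem cells are known for low protein synthesis and close control of protein quality.

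The stretches before the transcription start of 3 members are shown because most members moved together over the arrays. Psmb6 (inner ring) and Psmd12 (cap) were picked, with the matches known, from the few members that carry the first motif below, and Psma7 (outer ring) as one that does not. They are the 250 bases before the RefSeq start (build GRCm38.p6), and capitals mark matches, on either strand, of the core of the antioxidant response element TGACNNNGC, which NRF1 and its relative NRF2 are known to bind, and of the GC box GGGCGG, a site of SP and KLF factors.
Psmb6: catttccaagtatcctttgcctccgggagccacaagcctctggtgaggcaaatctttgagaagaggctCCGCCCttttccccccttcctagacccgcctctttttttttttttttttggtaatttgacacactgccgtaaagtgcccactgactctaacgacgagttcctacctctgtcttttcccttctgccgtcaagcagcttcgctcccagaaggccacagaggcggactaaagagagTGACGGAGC
Psmd12: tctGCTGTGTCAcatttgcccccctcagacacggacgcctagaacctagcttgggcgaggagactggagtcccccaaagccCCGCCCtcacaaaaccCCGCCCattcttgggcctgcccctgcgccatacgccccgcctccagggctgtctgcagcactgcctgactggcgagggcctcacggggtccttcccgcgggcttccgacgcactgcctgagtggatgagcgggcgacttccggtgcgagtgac
Psma7: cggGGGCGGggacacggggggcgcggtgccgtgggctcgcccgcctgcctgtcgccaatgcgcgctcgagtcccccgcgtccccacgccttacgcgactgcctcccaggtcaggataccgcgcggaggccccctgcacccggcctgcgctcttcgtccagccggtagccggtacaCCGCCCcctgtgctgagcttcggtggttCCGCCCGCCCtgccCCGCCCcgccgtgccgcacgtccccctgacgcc

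The Psmb6 stretch lies at chr11:70525107-70525356 on the plus strand, that of Psmd12 at chr11:107479278-107479527 on the plus strand and that of Psma7 at chr2:180042465-180042714 on the minus strand. The match of TGACNNNGC in Psmb6 begins 9 bases before the start, and that in Psmd12 begins 247 bases before it. Of the 36 members, 29 were matched by symbol in the promoter table and had 31 such stretches. TGACNNNGC was found in 5 of the 31 (16.1%), those of Psmb5, Psmb6, Psmc6, Psmd9 and Psmd12, against 10.2% of all 32851 stretches of the table. GGGCGG was found in 17 (54.8%) against 32.7%. The CACCC box (CACCC), another site of KLF factors, was found in 12 (38.7%) against 52.0%, and the CCAAT box (CCAAT) in 12 (38.7%) against 33.8%. Both strands were searched, and matches of different motifs overlapped in 2 of the 31 stretches. The median share of G and C was 54.8% in the members' stretches and 52.4% in all. These matches are descriptions of letters, not of bound sites.

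The level of Klf7 checks the labels. Its log2 intensity was 11.43, 10.19, 11.05 and 10.52 on KLF7 arrays 1 to 4, and 8.53, 10.28, 9.35 and 7.98 on control arrays 1 to 4. The array labelled control 2 thus lay above the array labelled KLF7 2. The difference was 1.76 (exact two-sided permutation test, p = 0.0571 over 70 splits, of which the smallest possible p is 0.0286). Arrays are named here as labelled. Of 12 stem and progenitor markers, 10 were measured. Kit, which encodes c-Kit, lay between 9.57 and 10.52 on 6 arrays and at 7.85 and 8.33 on the arrays labelled KLF7 4 and control 4. Ly6a, which encodes Sca-1, is not analysed here. Of 8 lineage markers, 6 were measured, and their mean level was 5.34 to 5.84 on the KLF7 arrays and 5.35 to 5.49 on the control arrays. This mean covers unlike genes. Itgam lay at 9.43 to 10.46 on the KLF7 arrays and 9.23 to 9.59 on the control arrays, and the other lineage markers at 5.91 or lower. The difference of Itgam was 0.56 (SE 0.23, limma unadjusted p = 0.036, adjusted p = 0.558). In RNA from many cells, fewer cells that use a gene and less of its RNA per cell cannot be told apart.

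Proteasome genes had nearly equal means in cells with the KLF7 virus and cells with the control virus. The median difference (KLF7 minus control, log2) was 0.068 over the 16 core genes and 0.015 over the 20 regulatory genes, against 0.0019 over all 19938 genes. The mean level of the core genes was 8.48 ± 0.60 on the KLF7 arrays and 8.41 ± 0.43 on the control arrays, and that of the regulatory genes 7.95 ± 0.47 and 7.93 ± 0.32 (SD, n = 4 each). Means were higher on the KLF7 arrays for 11 core genes and lower for 5, and for 10 and 10 regulatory genes, where 50.4% of all genes were higher.

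No member passed the test. In limma with Benjamini-Hochberg adjustment over all genes, 0 members and 0 of all genes (0%) had an adjusted p under 0.05. At an unadjusted p under 0.05 there were again 0 members, where 8.21% of all genes passed, and the groups overlapped for each of the 36, where 5.22% of all genes had groups apart. The difference was under 0.5 log2 in size for 35 members, the exception being Psmd10, and for 92.3% of all genes. The arrays do not bound these differences closely, since the 95% interval of Psma5, for example, ran from -0.94 to 1.10. Leaving out KLF7 4 gave a core median of -0.14 and leaving out KLF7 3 one of 0.29, and the regulatory median -0.12 and 0.19, so the sign of both turned on single arrays. Without both arrays numbered 4 the core and regulatory medians were 0.080 and 0.050. Without KLF7 2 and control 2 they were -0.19 and -0.16.

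**Figure D1:**
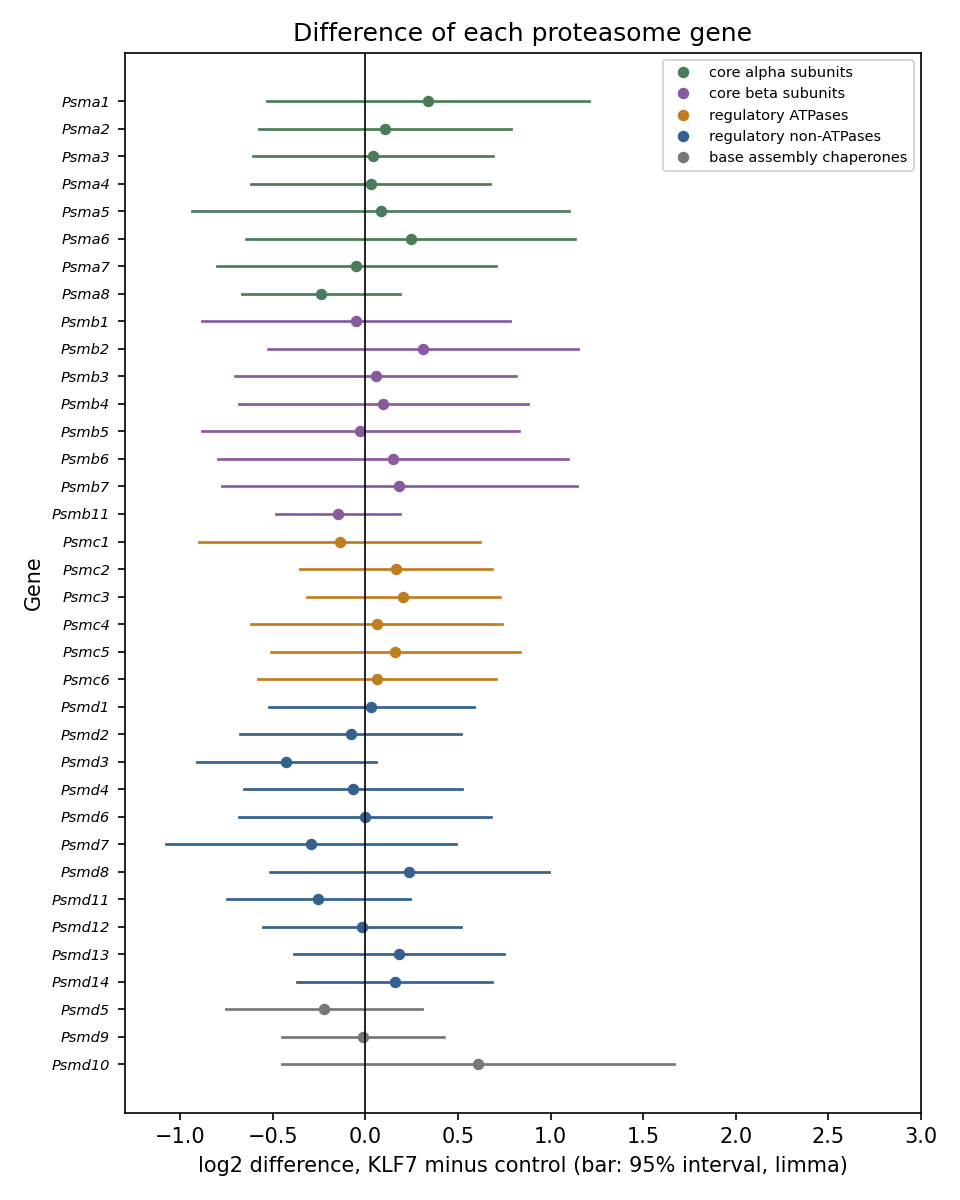
Difference of each of the 36 proteasome genes in log2 units (x axis, KLF7 minus control), with 95% intervals from limma, coloured by role. Each interval crosses 0, and the differences run from -0.43 for Psmd3 to 0.61 for Psmd10.

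The alpha subunits, which form the gate, had 6 genes with a higher mean in the KLF7 group and 2 with a lower one. Psma1, with the smallest p among the members of this ring found in most tissues, lay at 8.33, 8.88, 7.71 and 9.35 on KLF7 arrays 1 to 4 and at 7.56, 8.13, 8.12 and 9.12 on control arrays 1 to 4. The lowest KLF7 array lay below 3 of the control arrays. The difference was 0.34 (SE 0.39, 95% interval -0.53 to 1.21, limma adjusted p = 0.929), and 0.08 without KLF7 4 and 0.63 without control 4. Psma7, also chosen for its high level, lay at 8.87, 9.90, 9.16 and 10.34 and, in the controls, at 9.41, 9.38, 9.39 and 10.29. Its control arrays 1 to 3 were close together, and the KLF7 arrays lay on both sides of them (difference -0.05, SE 0.34, limma adjusted p = 0.992). Psma8, whose product replaces that of Psma7 in the testis, had values of 4.28, 5.18, 4.495 and 4.90 on the KLF7 arrays and 4.90, 5.05, 5.14 and 4.72 on the control arrays (difference -0.24, SE 0.19, limma adjusted p = 0.842), and did not follow the other members from array to array. It fell among the dimmer 50% of all genes, and whether it lay above background was not tested.

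Among the beta subunits 5 genes had higher and 3 had lower means on the KLF7 arrays. The catalytic genes of the constitutive core are Psmb5, with the chymotrypsin-like site, Psmb6, with the caspase-like site, and Psmb7, with the trypsin-like site. On KLF7 arrays 1 to 4, Psmb5 lay at 8.30, 9.69, 8.78 and 10.02, and on control arrays 1 to 4 at 8.94, 8.69, 9.45 and 9.82. Psmb6, whose upstream stretch is printed above, lay at 8.75, 9.65, 8.69 and 10.43, and at 9.06, 8.71, 8.96 and 10.19 in the controls. For Psmb7 the values were 7.87, 9.04, 8.53 and 9.65, against 8.80, 7.76, 8.26 and 9.55. In all 3, the arrays labelled KLF7 2, KLF7 4 and control 4 were the highest, and the means of the groups (9.20 and 9.22, 9.38 and 9.23, 8.77 and 8.59) differed by less than either group's SD, the smallest of which was 0.51. Psmb11, the beta subunit of the thymus, had values of 5.32, 5.12, 5.17 and 4.65 on the KLF7 arrays and 5.15, 5.23, 5.32 and 5.16 on the control arrays (difference -0.15, SE 0.15, limma adjusted p = 0.912). Its lowest array was KLF7 4, where most other members were at their highest. Like Psma8, it fell among the dimmer 50% of all genes, and whether it lay above background was not tested.

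The ring of ATPases is encoded by Psmc1 to Psmc6, and in the KLF7 group 5 of these 6 genes had the higher mean. Their median difference was 0.11, and the largest was 0.204, for Psmc3. The smallest unadjusted p among them was 0.406. The exception was Psmc1, with 7.93, 8.54, 7.39 and 8.97 on KLF7 arrays 1 to 4 and 8.45, 7.82, 8.26 and 8.86 on the controls. KLF7 3 was its lowest array and KLF7 4 its highest, so the KLF7 arrays enclosed the controls.

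The 11 other structural subunits of the cap had 4 higher and 7 lower means in the KLF7 group. Their median difference was -0.018. Psmd3, a scaffold subunit of the lid, had the smallest p of all 36 members. It lay at 6.96, 7.32, 7.27 and 7.82 on KLF7 arrays 1 to 4 and at 7.997, 7.55, 7.54 and 7.99 on control arrays 1 to 4. KLF7 arrays 1 to 3 were below each control, and KLF7 4 was above control 2 and control 3. The difference was -0.43 (SE 0.22, 1.34-fold lower, 95% interval -0.91 to 0.056, limma adjusted p = 0.674). It kept its sign in the 18 alternatives run, from -0.59 without KLF7 4 to -0.30 without KLF7 1, and the adjusted p lay between 0.359 and 0.875.

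Psmd11, a lid subunit that holds the assembled particle together, had values of 7.72, 8.21, 8.11 and 8.45 on the KLF7 arrays and 7.98, 8.55, 8.27 and 8.72 on the control arrays, and the groups overlapped widely (difference -0.26, SE 0.22, limma adjusted p = 0.871). Without KLF7 1 the difference was -0.12 and without KLF7 4 it was -0.37. Each KLF7 array of Psmd11 lay below the control of the same number, though the labels do not say that numbers pair the arrays. Psmd7, the partner of the deubiquitinase Psmd14 in the lid, lay at 6.98, 8.37, 7.42 and 8.42, and at 7.69, 7.89, 8.01 and 8.76 in the controls (difference -0.29, SE 0.35, limma adjusted p = 0.933). KLF7 1 and KLF7 3 were below the controls, and without KLF7 1 the difference was -0.02. In the other direction stood Psmd8, a lid subunit, with 9.26, 9.53, 8.83 and 10.20, and 9.03, 9.07, 8.74 and 10.04 in the controls. Both arrays numbered 4 were the highest here, and the difference of 0.24 (SE 0.34, limma adjusted p = 0.941) was -0.012 without KLF7 4. Without both arrays numbered 4 it was 0.26, and each KLF7 array of Psmd8 lay above the control of the same number.

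Psmd5, Psmd9 and Psmd10 encode chaperones that help to assemble the base of the cap and leave the finished particle. Psmd10, also known as gankyrin, had the widest range of the 36 members over the arrays, 2.61 log2. Its values were 6.15, 7.46, 6.49 and 7.93 on KLF7 arrays 1 to 4 and 6.62, 5.32, 6.19 and 7.46 on control arrays 1 to 4. Control 2 was the lowest and KLF7 4 the highest. The difference was 0.61 (SE 0.48, 1.52-fold, 95% interval -0.45 to 1.66, limma adjusted p = 0.837), and 0.25 without control 2, 0.30 without KLF7 4 and 0.098 without the arrays labelled KLF7 2 and control 2. Without both arrays numbered 4 it was 0.655. Psmd5 lay at 5.68, 6.48, 6.19 and 6.83 on the KLF7 arrays and at 6.49, 6.23, 6.51 and 6.83 on the controls, where KLF7 1 was the lowest array (difference -0.22, SE 0.24, limma adjusted p = 0.917, and -0.02 without KLF7 1).

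**Figure D2:**
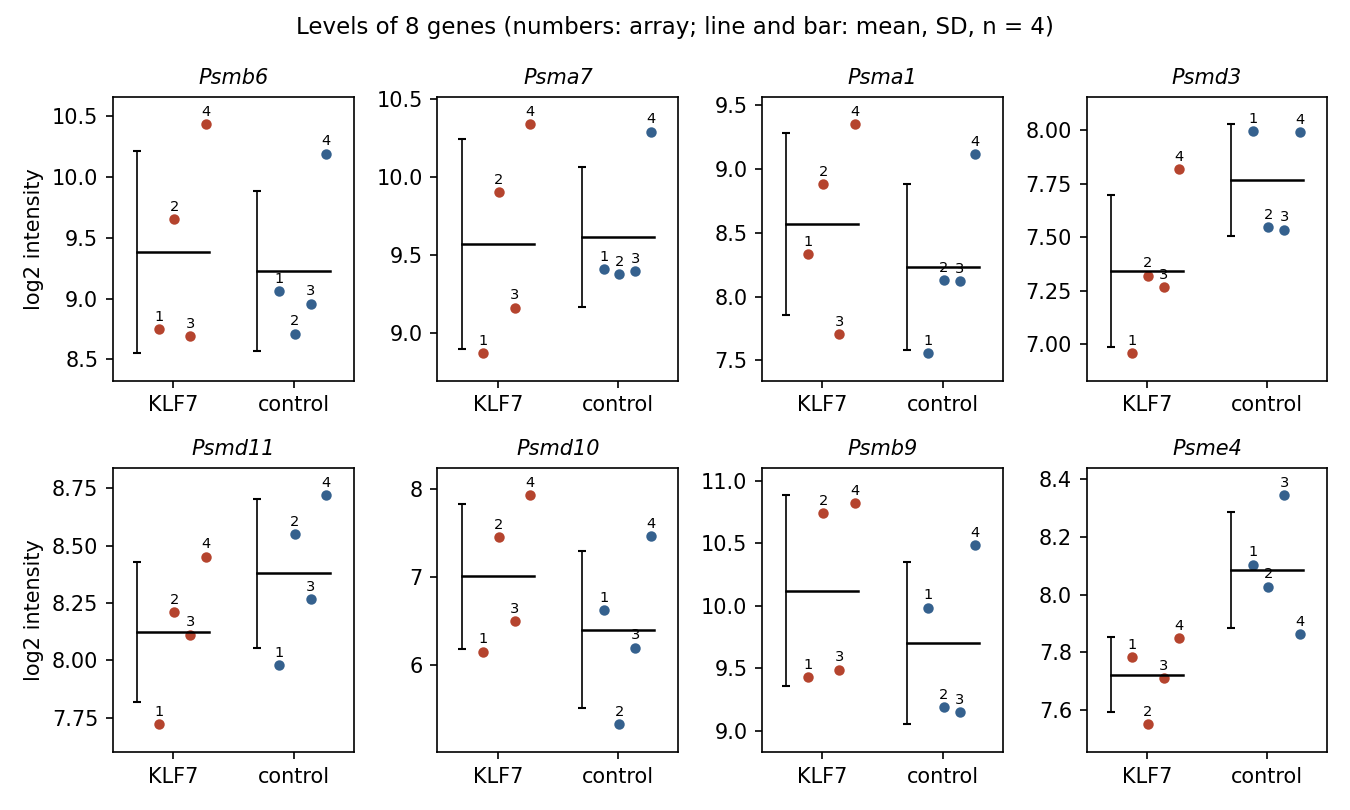
Log2 intensity (y axis) of 8 genes on the KLF7 and control arrays, with the number of each array, the mean (line) and the SD (bar, n = 4). The y axes differ between genes and do not start at 0. Array 4 is the highest of its group for Psmb6, Psma7, Psma1, Psmd11, Psmd10 and Psmb9, and the groups are apart only for Psme4, at 7.55 to 7.85 against 7.86 to 8.34.

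Proteasome genes differed far more between arrays of the same group than between groups, and they did so together. The arrays labelled KLF7 2, KLF7 4 and control 4 were the 3 highest for 31 of the 36 members, against 8.17% of all genes. The exceptions were Psma8, Psmb11, Psmd3, Psmd5 and Psmd11, of which Psma8 and Psmb11 were dim. The lowest array was KLF7 3 for 15 members and KLF7 1 for 11. This pattern was noticed in these arrays and is a description.

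Relative to each gene's mean over the 8 arrays, the core genes lay on average at -0.45, 0.40, -0.50 and 0.69 on KLF7 arrays 1 to 4, and at -0.27, -0.36, -0.09 and 0.58 on control arrays 1 to 4. The regulatory genes followed at -0.34, 0.26, -0.43 and 0.55, and at -0.08, -0.27, -0.13 and 0.45. The core genes thus swung more widely than the regulatory genes, with a median range per gene of 1.48 log2 against 1.10. The regulatory genes include 3 assembly chaperones. The median range was 1.18 for the ATPases and 1.04 for the other structural subunits. The core genes were also brighter (8.48 and 8.41 in the KLF7 and control groups, against 7.95 and 7.93). The part of the level in this contrast was not tested. The KLF7 group held both the highest array and the lowest for each particle. Over the 8 arrays, the level of a member correlated with the mean of the other members at a median r of 0.91, from -0.70 for Psmb11 to 0.98 for Psmb6, and 31 members had an r over 0.8. Over all genes the median r with the members' mean was -0.09 (quartiles -0.51 and 0.45), and 7.86% had an r over 0.8. These are correlations over 8 arrays that share their normalisation, and they carry no test. Pairs of core genes correlated at a median of 0.86, pairs of regulatory genes at 0.79 and core with regulatory genes at 0.81.

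Other properties of the arrays moved along. The 7498 other genes with mean levels within the range of the members other than Psma8 and Psmb11 (6.41 to 9.59) had median deviations of -0.07, 0.01, -0.09 and 0.15 on KLF7 arrays 1 to 4, and -0.04, -0.03, 0.02 and 0.08 on control arrays 1 to 4. KLF7 4 and control 4 were again the highest and KLF7 3 the lowest, but the size was smaller than in the members. The median intensity of all probe sets was 46.2 on KLF7 4 and 46.9 on control 4, and 49.6 to 54.1 on the others. Kit was low on the arrays numbered 4, and so was Gata2, a transcription factor gene of progenitors and mast cells, at 8.41 and 8.39 against 9.99 to 11.21 on the others. On KLF7 2, where the members were also high, Kit (9.96) and Gata2 (10.89) were not low. Gata2 was chosen once its values were known. The part of these properties in the shared pattern was not tested.

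**Figure D3:**
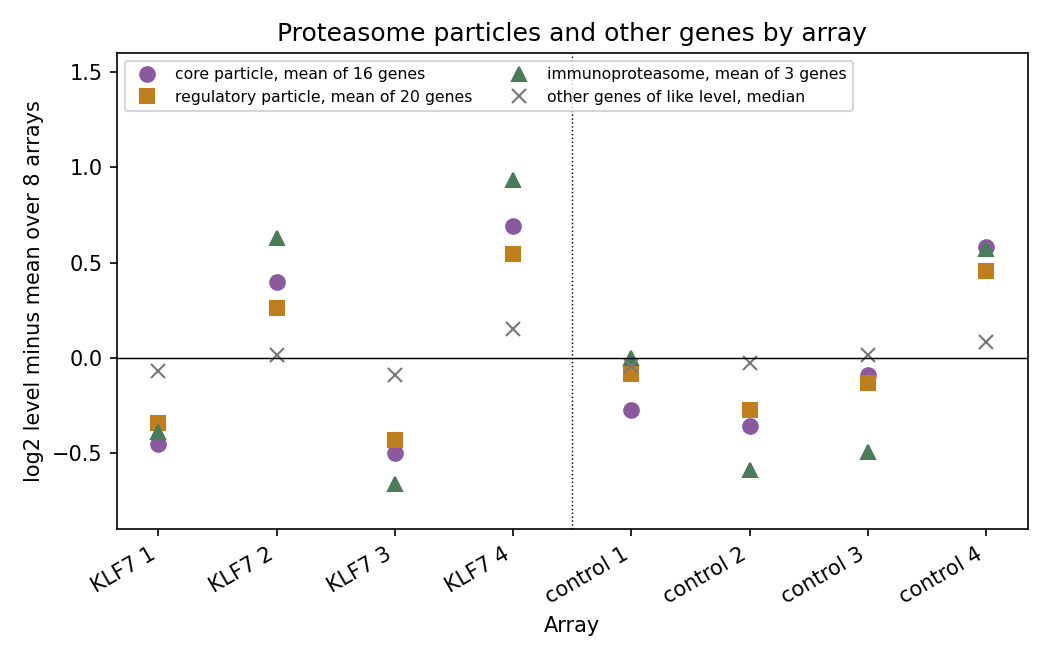
Mean deviation of the core, regulatory and immunoproteasome genes, and median deviation of the other genes of like level, from each gene's mean over the 8 arrays (y axis, log2), for each array (x axis). KLF7 2, KLF7 4 and control 4 lie above 0 for the core (0.40, 0.69 and 0.58), and the other 5 arrays lie below it.

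**Figure D4:**
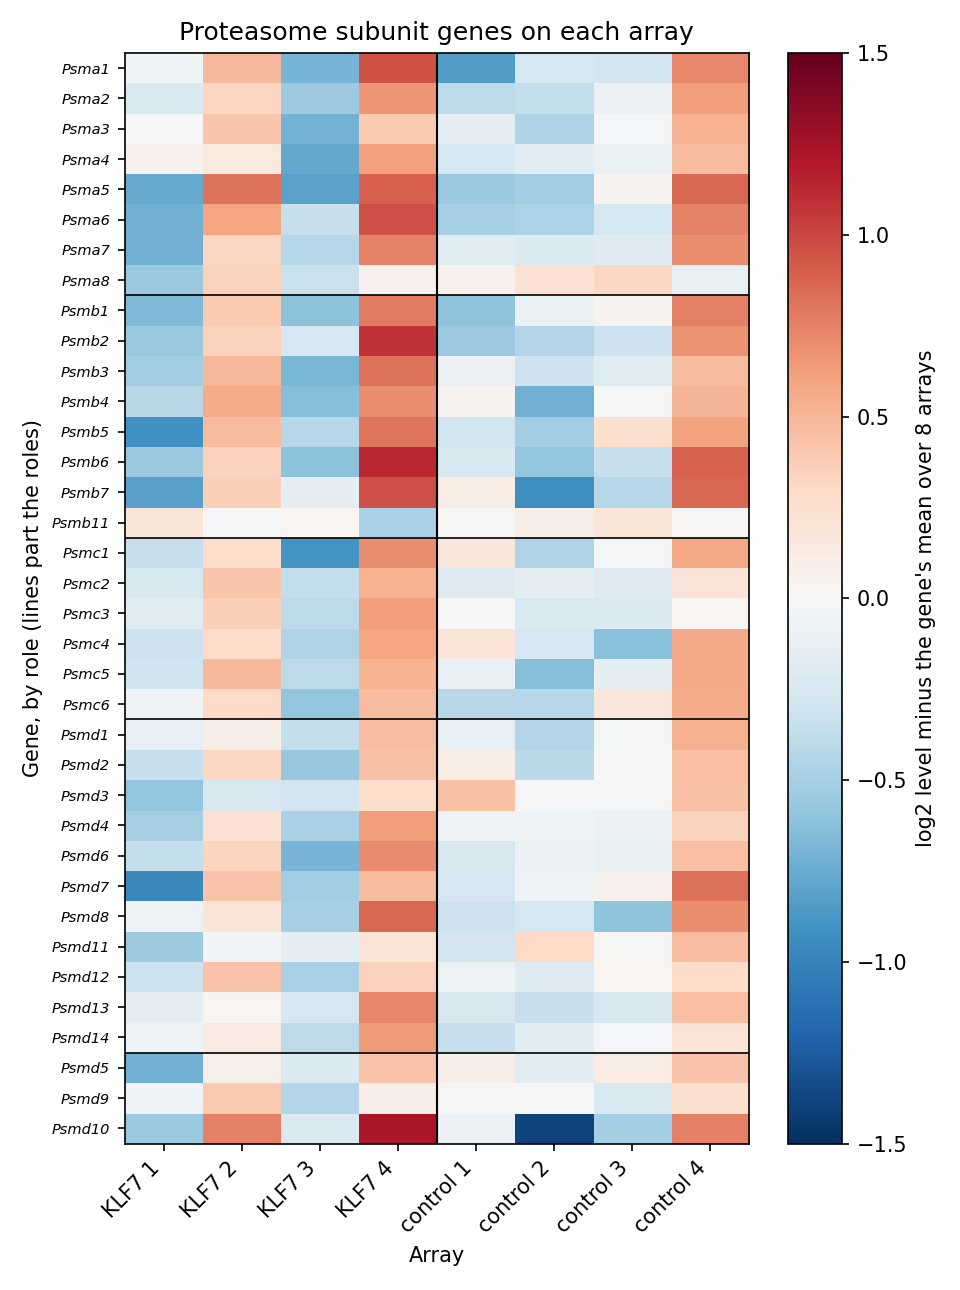
Log2 level of each of the 36 genes on each array, relative to the gene's mean over the 8 arrays (colour), with genes ordered by role. The columns of KLF7 2, KLF7 4 and control 4 are red for most genes, while the rows of the dim genes Psma8 and Psmb11 do not share the pattern.

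Psma3, Psma5, Psmb3, Psmc1 and Psmd2 each had more than 1 probe set under their symbol, and the one with the highest mean was used. Such sets can read near-identical copies of a gene, so which copy was measured is uncertain for these 5. For Psma5, the level on the KLF7 arrays was 8.19, 9.75, 8.14 and 9.84 by the set used and 6.80, 8.54, 7.003 and 8.57 by the other, and the differences between groups were 0.08 and 0.17. For Psmd2, which encodes the large scaffold of the base, they were -0.08 and 0.06. The sets of a gene correlated over the 8 arrays at 0.888 or more in each of the 5.

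The immunoproteasome genes, which interferon induces and whose products replace the catalytic beta subunits, followed the same arrays. Psmb9 lay at 9.43, 10.74, 9.49 and 10.82 on KLF7 arrays 1 to 4 and at 9.98, 9.19, 9.15 and 10.48 on control arrays 1 to 4 (difference 0.42, SE 0.41, limma adjusted p = 0.900). For Psmb8 the values were 8.51, 9.29, 8.07 and 9.45, and 8.57, 8.44, 8.41 and 9.16 in the controls (0.18, SE 0.32, adjusted p = 0.951 in limma). For Psmb10 they were 7.59, 8.56, 7.16 and 9.23, and 8.15, 7.31, 7.66 and 8.76 (0.17, SE 0.45, adjusted p = 0.971 in limma). KLF7 2, KLF7 4 and control 4 were the 3 highest arrays for each. With KLF7 2 and control 2 left out, the differences were 0.04 for Psmb9, -0.04 for Psmb8 and -0.20 for Psmb10.

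Monocytes, macrophages and dendritic cells use these subunits, and in the KLF7 group 9 of their 10 markers had the higher mean, as did 50.4% of all genes (median difference 0.93). Of these markers 7 had an unadjusted p under 0.05 in limma, where 8.21% of all genes did, and 0 an adjusted one. The sort for cells without lineage markers and with c-Kit and Sca-1 is meant to leave out mature cells of these types. How far it did so was not measured here. The mean level of the markers was 8.94 to 10.03 on the KLF7 arrays and 7.89 to 9.12 on the controls. Their highest array was KLF7 1, which was among the low arrays for the immunoproteasome genes. Their part in the levels of Psmb8, Psmb9 and Psmb10 was not tested.

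Regulators outside the subunit list were mixed. Of the 5 activator and inhibitor genes, 2 had higher and 3 lower means on the KLF7 arrays, and 0 had an unadjusted p under 0.05. Psme4, which encodes the nuclear activator PA200, lay at 7.78, 7.55, 7.71 and 7.85 on the KLF7 arrays and at 8.10, 8.03, 8.34 and 7.86 on the controls. Each KLF7 array was below each control, though KLF7 4 and control 4 nearly met, and the groups were apart in either direction in 5.22% of all genes. The difference was -0.36 (SE 0.17, limma adjusted p = 0.632). The activators of the immunoproteasome and of the nucleus, Psme2 (0.45, SE 0.31, limma adjusted p = 0.790) and Psme3 (-0.40, SE 0.26, limma adjusted p = 0.784), had means on opposite sides.

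Of 6 chaperones of core assembly and the cap, 5 were measured, with 2 higher and 3 lower means and 0 at an unadjusted p under 0.05. Psmg1 and Psmg2 form a pair that builds the alpha ring. Psmg1 differed by -0.49 (SE 0.52) and Psmg2 by -0.62 (SE 0.36, limma adjusted p = 0.747). Psmg2 lay at 6.47, 7.59, 6.11 and 7.75 on the KLF7 arrays and at 7.37, 7.43, 7.44 and 8.16 on the controls, so KLF7 1 and KLF7 3 were below each control. Without KLF7 3 the difference was -0.33. Pomp, the chaperone that helps beta subunits to join, differed the other way, by 0.47 (SE 0.38, limma adjusted p = 0.846), with 8.64, 9.12, 8.43 and 9.82, and 8.25, 8.17, 8.15 and 9.56 in the controls. KLF7 3 lay above 3 controls, and the difference was 0.20 without KLF7 4 and 0.54 without both arrays numbered 4.

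Of 13 enzymes and shuttle factors that bind the proteasome, 11 were measured, 2 with higher and 9 with lower means on the KLF7 arrays and 0 at an unadjusted p under 0.05. The ubiquilin gene Ubqln4 was at -0.45 (SE 0.28), Ecpas, whose product clamps core and cap together, at -0.28 (SE 0.18), and Zfand2a, a stress-induced partner of the cap, at 0.37 (SE 0.28). Sem1, a small lid subunit outside the name rule, was at 0.03 (SE 0.32). Of 10 genes of ubiquitin and its segregase, 5 were measured, 1 higher and 4 lower, with 0 at an unadjusted p under 0.05. Ufd1, a cofactor of the segregase, was at -0.19 (SE 0.19).

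None of the 7 genes listed for the transcription of proteasome genes passed the test. Nfe2l1 lay at 7.51, 8.74, 8.14 and 8.58 on KLF7 arrays 1 to 4 and at 8.13, 8.12, 8.10 and 8.29 on control arrays 1 to 4 (difference 0.09, SE 0.26, limma adjusted p = 0.976). Its control arrays lay close together, and its highest arrays were KLF7 2 and KLF7 4. Nfe2l2, which encodes NRF2, was at 9.15, 9.36, 9.30 and 9.88, and at 8.95, 8.93, 8.98 and 9.55 in the controls (0.32, SE 0.22, limma adjusted p = 0.7999). KLF7 1 to 3 lay above control 1 to 3 and below control 4. Stat3 (0.27, SE 0.22) and Foxo4 (-0.26, SE 0.16) stood on either side. Of the 7 genes, 4 had higher and 3 lower means and 0 had an unadjusted p under 0.05.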

How the data were processed

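Expression was measured on 8 single-colour arrays, 4 per virus. The deposited values are probe set intensities on a linear scale (2.20 to 15393), which, per the submitters' processing notes, the authors summarised by RMA with Affymetrix software (Expression Console). RMA normalises between arrays, so a change shared by most genes would be lost. Its version was not given in the sources used here. Log2 was taken. Of 35554 probe sets, 21789 carried 1 symbol in the platform annotation, and the probe set with the highest mean was kept for each of 19938 genes, with no filter on dim ones. All genes were fitted together in limma 3.58.1 (R 4.3.3; lmFit, eBayes with trend, group as the only term), two-sided, with Benjamini-Hochberg adjustment and a threshold of 0.05. The fit was tested on simulated data with independent noise for each gene, which lack the pattern that genes share over these arrays.

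Values on every array are given for the 3 members of each particle with the smallest p, the one with the highest mean, those opposing their particle's median by more than 0.2, and Klf7, Psmb8, Psmb9, Psmb10 and Nfe2l1. Up to 3 genes by smallest p were named from each other list. Of these, Psme4, Psmg2, Pomp and Nfe2l2 are also given on every array, outside that rule. Psmb5, Psmb6, Psmb7, Psmc1, Psma5, Psmd2, Itgam, Hlf, Cd34, Flt3, Meis1 and Slamf1 were added after their values were seen. The members and lists were chosen with earlier results of these data known. Alternatives left out arrays, used the replicate number as a block, or changed normalization, weights, prior, filter and probe set choice. Promoter stretches came from RefSeq (GRCm38.p6). Figures used matplotlib 3.10.9.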

Additional observations from a re-analysis of the deposited data

Results flagged for a closer look

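Among the members, the named genes and the mean levels of the particles, 114 groups of 4 arrays were examined for an array far from the other 3 of its group (Dixon's gap test at the 95% level), and 9 had one, where chance flags about 1 in 20. The groups are not independent, since most members moved together. In 7 of the 9 it was the array labelled control 4, which lay above the other controls. The proteasome genes among them were Psma7 at 10.29 (others 9.38 to 9.41), Psmd4, a ubiquitin receptor, at 8.64 (8.21 to 8.24), Psmc2 at 7.89 (7.501 to 7.55) and Psmd13 at 7.67 (6.88 to 6.98). The chaperone genes Pomp, at 9.56 (8.15 to 8.25), and Psmg2, at 8.16 (7.37 to 7.44), and Nfe2l2, at 9.55 (8.93 to 8.98), also stood apart there. Ecpas was high on KLF7 1, at 8.70 (8.17 to 8.25), and Foxo4 on control 2, at 5.93 (5.80 to 5.82).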

How the results depend on the processing

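Over 18 alternatives, the core median lay between -0.19 and 0.29 and the regulatory median between -0.16 and 0.19, moves smaller than the SD between arrays. The count of core members with a higher mean ran from 2 to 14 and of regulatory members from 4 to 16 when single arrays were left out, so neither particle has a settled direction. The number of genes past the adjusted threshold was 0, and 0 to 1 when an array was left out. With the replicate block it was 90 (2691 at an unadjusted p under 0.05), none of them a member. Deviations of same-numbered arrays correlated at 0.35, -0.13, 0.36 and 0.70 for numbers 1 to 4. KLF7 1, 3 and 4 each correlated best with its own number, a hint of pairing from the data, and KLF7 2 did not. The labels do not say that the numbers mark a shared culture, so the block was kept as an alternative. Members at an unadjusted p under 0.05 numbered 0 to 1 without single arrays, 1 without both arrays numbered 4 (Psmd3) and 1 with the replicate block (Psmd3). The 1 member was the dim gene Psma8 without KLF7 2 (-0.40) and Psmd3 without KLF7 4 (-0.59), and neither passed after adjustment. Named genes outside the members also had an unadjusted p under 0.05 in some alternatives. Among them was Ubqln4, with a limma p of 0.0028 without KLF7 4 and 0.033 with the replicate block. Psme4 had a limma p of 0.014 with array weights, 0.030 without both arrays numbered 4 and 0.038 without control 4. With the replicate block its limma p was 0.058. Psme2, Psmg2 and Pomp had a limma p of 0.021, 0.024 and 0.027 with the block. The adjusted p of each of these genes was 0.258 or more in every alternative. The Klf7 difference was 1.41 to 2.18 without single arrays, with exact p = 0.0286 without control 2, and 1.77 with arrays centred on their median (exact p = 0.0286). Signs turned when single arrays were left out for Psma7 (-0.31 to 0.18), Psmd8 (-0.012 to 0.51), Psmb8 (-0.023 to 0.44), Psmb10 (-0.20 to 0.49), Nfe2l1 (-0.079 to 0.33) and Sem1 (-0.13 to 0.24). Without KLF7 2 and control 2, Psmb8 was at -0.037, Psmb10 at -0.20, Nfe2l1 at -0.092 and Sem1 at -0.26. Sem1 was at -0.012 with quantile normalization again, and Psma7 at 0.11 with array weights. The cause was not tested.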
